A study of Mus musculus with 234 samples.

Results

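Genes of voltage-gated ion channels and their close relatives were followed in single cardiomyocytes (CMs) of CAG-BAG3P209L and control mice. The genes were taken by their symbol, which had to start with Kcn, Scn or Cacn followed by the letters and number of a channel family, and by a count in at least 10% of all cells. Of 55538 features, 132 had such a symbol, and 24 of these reached the limit. The limit was taken over all cells, of which 33 were control CMs, and so leans towards genes found in transgenic CMs. *Kcna4* (3.03% of control CMs) and *Cacna1a* (6.06%) passed it through transgenic CMs alone. *Scn4b* (18.2% of control CMs), *Kcnh7* (15.2%), *Scn4a* (12.1%) and *Kcnd3* (12.1%) were found in more control CMs and did not pass. Just inside the limit were *Cacna1a* with a count in 25 cells (10.7%) and *Cacnb1* in 27 cells (11.5%). Just outside were *Scn4a* in 22 cells (9.40%) and *Kcnh7* and *Kcnj8*, each in 21 cells (8.97%). The symbols also take in channels that voltage does not open, so that 16 of the 24 genes belong to families of voltage-gated channels and 8 to inward rectifier, K2P leak or calcium-activated potassium channels.

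In a CM the action potential starts when sodium channels open and let in the fast inward current of the upstroke. L-type calcium channels then carry the current of the plateau, which also triggers contraction. Several potassium currents end the action potential, and the inward rectifier current holds the resting potential. Most channels are built from a pore-forming subunit and accessory subunits that set its amount at the membrane and its kinetics. In mice the transient outward current is the main current of early repolarization, and its make-up differs between newborn and adult CMs.

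BAG3P209L is the human co-chaperone BAG3 with the myopathy mutation P209L, here fused to eGFP under the CAG promoter, which is active in most cell types, in the Rosa26 locus. The allele is switched on by Cre driven by the PGK promoter. The labels give the strains PGKcre:BAG3P209L_homo for mice M25 and M116, PGKcre:BAG3P209L_het for mouse M72 and C57BL/6 for the control mice M26 and M73. The sample titles call both control mice wt, and the study describes its controls as siblings on a mixed background. Hearts for single CMs were taken at 2 weeks of age, and the age of the heterozygous mouse M72 is not given in the sources used here. The labels name no treatment. CMs were picked by hand after Langendorff dissociation, cells with little cDNA were left out by the authors, and the labels divide those of each transgenic mouse by eGFP fluorescence into bright and dim. There were 33 control CMs (24 of M26 and 9 of M73), 80 homozygous bright CMs (21 of M25 and 59 of M116), 68 homozygous dim CMs (18 of M25 and 50 of M116), and 27 bright and 26 dim CMs of M72.

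The measured quantity was the number of reads counted on a gene in a cell by SMART-seq2, a method that reads whole transcripts and adds no molecular identifiers. The mouse is the replicate, so the counts of all cells that share mouse and label were added up, giving 8 sums with 4096609 to 40508124 counts. Levels are given as normalized CPM, the CPM of a sum (its counts relative to its total) after scaling by edgeR's TMM factor. The human BAG3 feature lay between 233 and 294 CPM in homozygous bright CMs, at 10.7 (M25) and 99.6 (M116) in homozygous dim CMs, and at most at 0.488 in control CMs. In mouse M72 it was 105 CPM in the cells labelled bright and 251 CPM in the cells labelled dim, so that the order of the transgene counts went against these labels. The 6 CM markers together reached 44559 to 54946 CPM in every sum. Of the other marker lists, that of immune cells lay between 49.6 and 57.3 CPM in homozygous dim CMs and between 0.264 and 3.17 CPM in homozygous bright and control CMs. That of endothelial cells reached 145 and 149 CPM in homozygous dim CMs, against 55.8 and 73.8 in homozygous bright and 67.5 and 128 in control CMs, and in M72 it was 95.8 in the cells labelled bright and 162 in those labelled dim. That of fibroblasts reached 1661 CPM in the bright CMs of M25 against 13.8 to 284 CPM elsewhere. Mural cell markers summed to 1115 (M26) and 323 CPM (M73) in control and to 795 to 1647 CPM in homozygous CMs. In the cells of M72 labelled bright and dim they summed to 868 and 1137 CPM. Most of this was *Acta2* (241 to 1620 CPM). Schwann cell markers summed to at most 8.06 CPM. The conduction cell markers *Hcn4*, *Tbx3*, *Cacna2d2* and *Shox2* were all at 0 in control CMs and summed to at most 6.42 CPM elsewhere. Their part in the results below was not tested beyond leaving out the cells richest in fibroblast, endothelial and immune markers.

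Levels differed widely between the channel genes. Per kilobase of exon, *Kcne1* (77.4 ± 30.5 normalized CPM per kb, mean ± SD over 8 sums) and *Kcnk3* (59.4 ± 21.9) had the highest means, which differed by less than their spread. Which of them was higher differed between the sums, and this was not tested. In normalized CPM per kb, *Kcnk3* had 73.2 and 102 against 61.7 and 43.5 of *Kcne1* in control and 63.2 and 61.1 against 59.4 and 38.7 in M72, while *Kcne1* was the higher in all 4 homozygous sums (86.4 to 115 against 32.1 to 53.2). *Kcnip2* (28.3 ± 8.09) had the third highest mean. *Kcng2* (21.3 ± 8.79) and *Kcnj11* (19.7 ± 5.84) came next and differed by less than their spread. From *Cacna2d1* (10.9 ± 3.78) to *Cacna1c* (4.30 ± 1.17), neighbouring genes had overlapping spreads, among them *Kcnh2* (8.62 ± 3.33) and *Kcnd2* (4.66 ± 2.28). The lowest were *Cacnb1* (0.825 ± 0.406), *Cacna1g* (0.686 ± 0.511) and *Cacna1a* (0.0691 ± 0.0672). The families differed in how many of their named genes were seen: 3 of 10 calcium channel alpha1 subunits, 0 of 8 gamma subunits, 6 of 40 voltage-gated potassium channel alpha subunits, 5 of 15 inward rectifiers and 1 of 14 K2P channels reached the limit. Of 23 channel genes known from the heart, 18 reached it, and *Kcnd3* (18 cells), *Kcna5* (16 cells), *Scn4b* (12 cells), *Cacna1h* (6 cells) and *Kcnj8* did not.

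**Figure D1:**
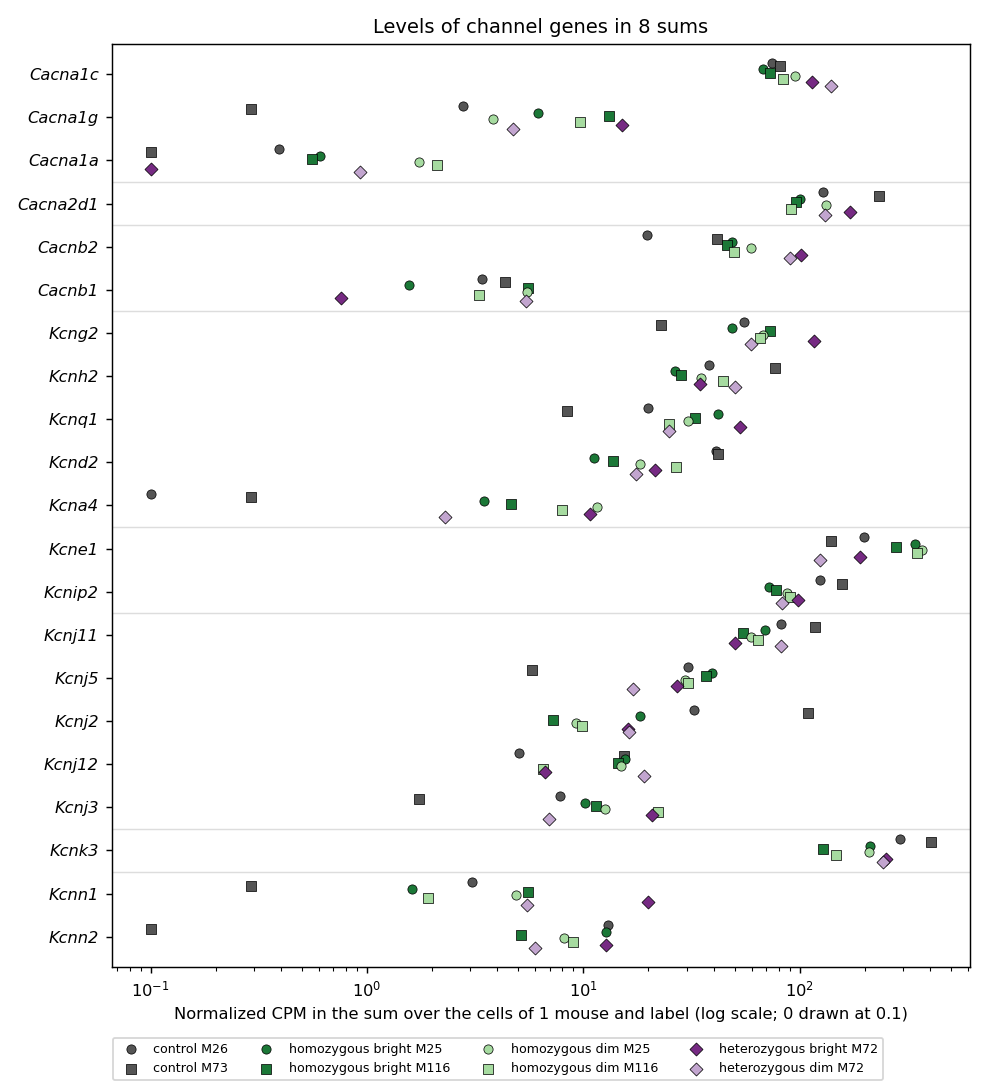
Normalized CPM of channel genes (rows, grouped by family) in the 8 sums over the cells of 1 mouse and label, on a log axis with 0 drawn at 0.1. Each point is 1 sum, coloured by label and shaped by mouse; *Kcnj2* and *Kcnd2* lie to the right in both control mice, and *Kcna4* lies at 0 and 0.290 in them.

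The first question was whether channel transcripts differ between CMs that express BAG3P209L and control CMs. In homozygous bright against control CMs, 13 of the 24 genes were higher and 11 lower, the median of their log2 fold changes being 0.49 (all genes tested 0.11). Over the 22 genes found in at least 10% of control CMs the split was 11 and 11 and the median 0.21. The genes furthest below control were *Kcnj2* and *Kcnd2*, and furthest above, of those 22, was *Cacna1g*. With edgeR (quasi-likelihood F-test, p adjusted by Benjamini-Hochberg over all 12203 genes tested), 0 of the 24 genes and 0.0164% of all genes had an adjusted p below 0.05, and the lowest adjusted p of a channel gene was 0.663. At an unadjusted p under 0.05 there were 5 channel genes (20.8%), 4 lower (*Kcnj2*, *Kcnd2*, *Kcnk3*, *Kcnip2*) and 1 higher (*Kcne1*), where the background over all genes was 6.55%. The bright sums were both under the lower control in 8 channel genes (33.3%, background 14.3%) and both over the higher control in 8 (33.3%, background 24.6%), and the last number was 6 of 22 without *Kcna4* and *Cacna1a*, whose direction the limit on cells favours. DESeq2 also called 0 channel genes, against 106 of all 12203 genes, and had 6 of the 24 at an unadjusted p under 0.05 (background 8.31%). In edgeR this number was 15 without control M26 (background 27.4%), 3 without control M73 (7.87%), 2 without bright M25 (1.58%) and 0 without bright M116 (2.60%). It was 3 of 23 genes tested when the 22 cells with at least 1000 CPM of fibroblast, endothelial and immune markers were left out (background 5.85% of 11768 genes). With library size in place of TMM the split was 17 higher and 7 lower, and the median of all genes was 0.41. With 2 mice against 2, an exact permutation test of a single gene cannot go below p = 0.33, and in counts simulated for this comparison the fit called 0 of 49 genes changed 4-fold and 15 of 44 changed 16-fold.

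Dim CMs of the same homozygous mice were compared with the same control sums, so that both comparisons share their controls and are not independent. Of the 24 genes, 14 had a higher level in dim CMs and 10 a lower one, the median log2 fold change being 0.18 (all genes 0.10). In edgeR 0 of them and 0.0% of the 12195 genes tested had an adjusted p below 0.05. At an unadjusted p under 0.05 there were 4 (16.7%, background 6.22%), namely *Kcnj2* and *Kcnk3* lower and *Kcne1* and *Kcna4* higher. As *Kcna4* met the limit on cells through transgenic CMs alone, its direction is no result of the count, and 3 of 22 genes were left without it and *Cacna1a*. Both dim mice lay above both control mice in 9 channel genes (37.5%, background 24.1%), which is 7 of 22 without those genes, and below them in 5 (20.8%, background 13.7%). *Kcnj2* passed with DESeq2 (as 1 of 55 genes called among 12195), without the filter on low counts (1 of 58 among 20205), and without control M26, where it was 1 of 827 genes called among 14036. Without M26, 14 channel genes had an unadjusted p under 0.05 against a background of 27.9%, and without dim M25 or dim M116 there was 1 (background 1.26% and 1.35%).

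**Figure D2:**
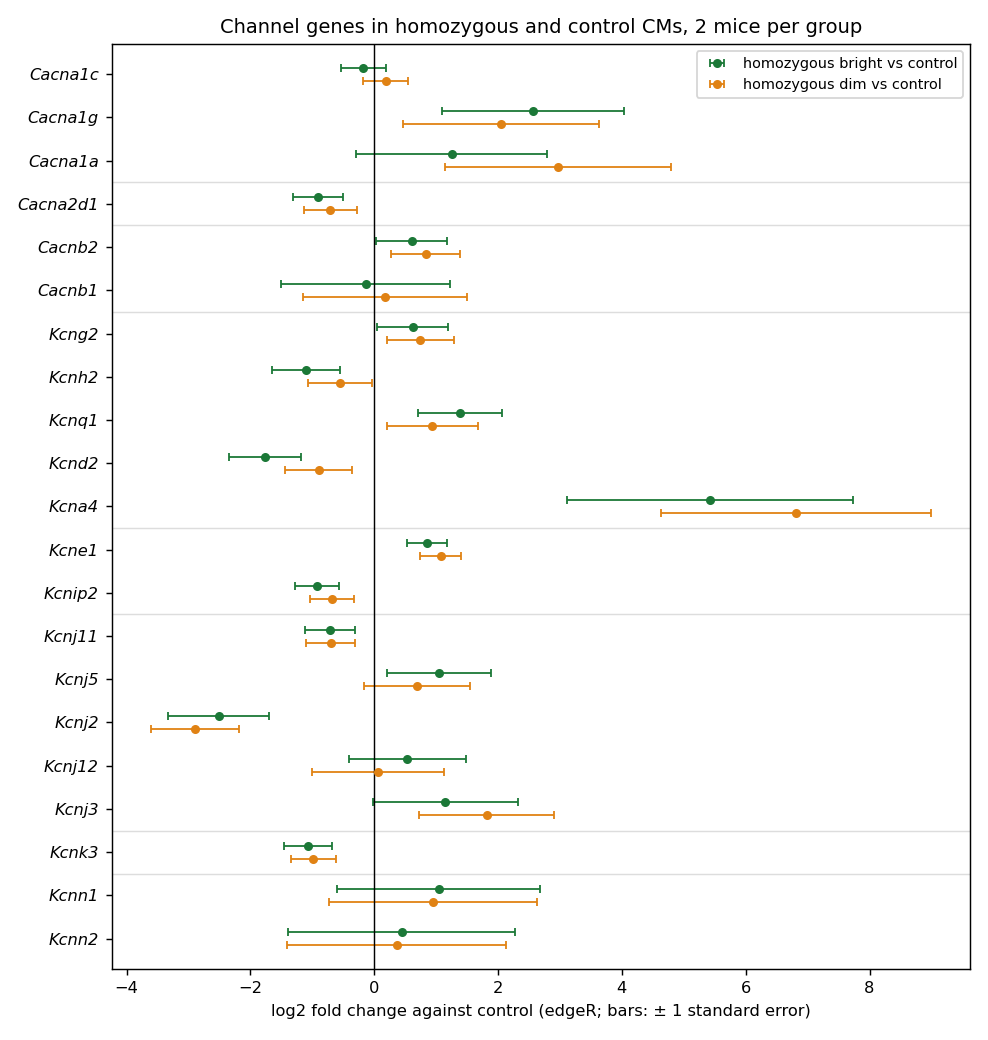
Log2 fold change of channel genes in homozygous bright (green) and homozygous dim (orange) CMs against the same control CMs, with bars of ± 1 standard error, 2 mice per group. *Kcnj2* lies at -2.51 and -2.90, *Kcne1* at 0.85 and 1.07 and *Kcna4*, with the widest bars and chosen through transgenic CMs, at 5.42 and 6.81, and no gene passed an adjusted p of 0.05.

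*Kcnj2*, the pore-forming subunit of the main ventricular inward rectifier, which holds the resting potential, had 32.4 and 109 normalized CPM in control mice M26 and M73. In homozygous bright CMs it had 18.2 (M25) and 7.25 (M116), in homozygous dim CMs 9.30 (M25) and 9.85 (M116), and in the cells of M72 labelled bright and dim 16 and 16.3. All 6 transgenic sums lay below both control sums, and the control mice differed from each other more than any transgenic sums did. The log2 fold change was -2.51 (SE 0.82, adjusted p = 0.663 from edgeR) in bright and -2.90 (SE 0.71, adjusted p = 0.735 from edgeR) in dim CMs. Between mice of the same library set, given by a code in the labels, the log2 difference in bright CMs was -0.81 (M25 against M26) and -3.82 (M116 against M73). The 9 cells of M73 weighed heavily, as 1 of them held 44.5% of its *Kcnj2* counts, and without M73 the log2 fold change was -1.34 in bright and -1.76 in dim CMs. It was -1.29 in bright and -1.44 in dim CMs when each cell had equal weight (median of all genes 0.54 and 0.66).

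*Kcnj12*, a second subunit of the same current, had 5.02 and 15.4 normalized CPM in control, 15.7 and 14.4 in homozygous bright, 14.9 and 6.51 in homozygous dim CMs, and 6.69 and 19 in the cells of M72 labelled bright and dim. Its groups overlapped (log2 fold change in bright CMs 0.54, SE 0.94). *Kcnj11*, the pore of the ATP-sensitive potassium channel, had 82.0 and 117 in control, 69 and 54.5 in bright, 59.6 and 64.4 in dim CMs, and 50.2 and 81.7 in M72. Every transgenic sum lay below both controls, with a log2 fold change of -0.72 (SE 0.40) in bright and -0.70 (SE 0.39) in dim CMs. With each cell weighted equally these values were -0.02 and -0.06 (median of all genes 0.54 and 0.66). *Kcnj3* and *Kcnj5* form the acetylcholine-activated channel, best known from the atria. *Kcnj3* had 7.81 and 1.74 in control, 10.2 and 11.5 in bright, 12.6 and 22.1 in dim CMs, and 20.7 and 6.93 in M72. *Kcnj5* had 30.6 and 5.80 in control, 39.4 and 36.9 in bright, 29.6 and 30.4 in dim CMs, and 27.1 and 16.9 in M72. For both genes control M73 was the lowest of the 8 sums, and their log2 fold changes in bright CMs were 1.15 (SE 1.17) and 1.05 (SE 0.84).

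*Kcnk3*, a K2P channel of background potassium current, had 291 and 406 normalized CPM in control, 211 and 128 in homozygous bright, 210 and 147 in homozygous dim CMs, and 251 and 243 in the cells of M72 labelled bright and dim. All 6 transgenic sums lay below both controls. The log2 fold change was -1.07 (SE 0.38, adjusted p = 0.663 from edgeR) in bright and -0.98 (SE 0.36, adjusted p = 0.735 from edgeR) in dim CMs. Within library sets it was -0.46 and -1.67 in bright CMs. When each cell had equal weight the value in dim CMs turned to 0.10, where the median of all genes was 0.66.

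*Kcnd2*, the pore of the fast transient outward channel, had nearly the same level in both control mice, 40.9 and 42 normalized CPM. In homozygous bright CMs it had 11.2 (M25) and 13.8 (M116), in homozygous dim CMs 18.3 and 26.7, and in the cells of M72 labelled bright and dim 21.5 and 17.6. The groups did not overlap, the bright sums were lowest, and the log2 fold change was -1.76 (SE 0.58, adjusted p = 0.663 from edgeR) in bright and -0.90 (SE 0.55, adjusted p = 0.972 from edgeR) in dim CMs. In bright CMs the value was -1.83 and -1.58 within the library sets and -1.71 without M73, in which 1 cell held 90.3% of the *Kcnd2* counts. In dim CMs it was -0.09 when each cell had equal weight (median of all genes 0.66). *Kcnip2*, whose protein binds the *Kcnd2* channel and raises its amount at the membrane, had 124 and 156 in control, 72.4 and 78 in bright, 87.0 and 89.9 in dim CMs, and 98.2 and 82.6 in M72. All transgenic sums were again below both controls. The log2 fold change was -0.92 (SE 0.35, adjusted p = 0.720 from edgeR) in bright and -0.68 (SE 0.35, adjusted p = 0.931 from edgeR) in dim CMs. With equal weight for each cell the value in dim CMs was 0.20 (median of all genes 0.66).

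*Kcna4*, the pore of the slow transient outward channel, which immature CMs are known to express, had 0 counts in the 24 cells of M26 and 1 count in the 9 cells of M73. In homozygous bright CMs it had 3.48 (M25) and 4.64 (M116) normalized CPM, in homozygous dim CMs 11.6 and 7.99, and in the cells of M72 labelled bright and dim 10.8 and 2.29. The gene met the limit on cells through transgenic CMs, so that its levels against control are a description and not a test. Few cells carried these counts, with 59.4% of them in 1 cell in the bright CMs of M25, 53.2% in the dim CMs of M25 and 66.2% in the cells of M72 labelled bright.

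The remaining voltage-gated potassium channels carry delayed rectifier currents. *Kcnq1*, the pore of the slow delayed rectifier, had 19.9 and 8.41 normalized CPM in control, 42.1 and 33 in bright, 30.4 and 24.8 in dim CMs, and 53 and 24.9 in the cells of M72 labelled bright and dim. All transgenic sums were above both controls (log2 fold change 1.39, SE 0.68, in bright CMs). Its exons share 121 bases with the antisense transcript *Kcnq1ot1*, whose log2 fold change was -0.45 (SE 0.55), and the library kit marks no strand, so that reads of the shared part cannot be assigned. The same limit holds for *Kcnj3*, which shares 31.1% of its exon length with *Gm26794* (0 counts), and for *Kcnk3*, which shares 5.76% with *Gm9899*. *Kcne1*, the accessory subunit of the *Kcnq1* channel, had 198 and 140 in control, 341 and 278 in bright, 369 and 350 in dim CMs, and 191 and 124 in M72. Homozygous sums lay above both controls while those of M72 did not, and the log2 fold change was 0.85 (SE 0.32, adjusted p = 0.713 from edgeR) in bright and 1.07 (SE 0.33, adjusted p = 0.735 from edgeR) in dim CMs. In M73 1 cell held 64.3% of the *Kcne1* counts. Within the library sets the log2 difference in bright CMs was 0.78 and 0.99. With each cell weighted equally the log2 fold change was 2.06 in bright and 3.15 in dim CMs (median of all genes 0.54 and 0.66).

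*Kcnh2*, the pore of the rapid delayed rectifier, had 38.3 and 76.8 in control, 26.6 and 28.4 in bright, 35.1 and 44.1 in dim CMs, and 34.6 and 50.1 in M72. Bright sums were the lowest (log2 fold change -1.10, SE 0.55), and dim and control sums overlapped. *Kcng2*, a subunit that forms no channel alone and modifies others, ranged from 22.9 to 116.2 normalized CPM over the 8 sums, with the lowest value in control M73. The calcium-activated *Kcnn1* (0.290 to 19.8) and *Kcnn2* (0 to 12.9) had log2 fold changes of 1.04 (SE 1.64) and 0.44 (SE 1.84) in bright CMs, and control M73 was again the lowest sum for both.

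Among the calcium channels, *Cacna1c*, the pore of the L-type channel, was the steadiest, with 74.1 and 81.5 normalized CPM in control, 67.4 and 72.7 in bright, 94.9 and 84.0 in dim CMs, and 114 and 140 in the cells of M72 labelled bright and dim. Bright sums were just below and dim sums just above both controls, with log2 fold changes of -0.18 (SE 0.37) and 0.18 (SE 0.37). *Cacna2d1*, the subunit that brings the channel to the membrane, had 129 and 233 in control, 101 and 96.1 in bright, 132 and 90.9 in dim CMs, and 170 and 131 in M72. The bright sums were below both controls (log2 fold change -0.91, SE 0.41), and dim sums overlapped with them. *Cacnb2*, the main beta subunit of CMs, had 19.6 and 41.5 in control, 48.9 and 45.9 in bright, 59.9 and 49.7 in dim CMs, and 102 and 90.5 in M72. Every transgenic sum was above both controls, with log2 fold changes of 0.61 (SE 0.57) in bright and 0.83 (SE 0.55) in dim CMs. *Cacna1g*, the pore of a T-type channel of pacemaking and immature CMs, had 2.79 and 0.290 in control, 6.15 and 13.1 in bright, 3.84 and 9.67 in dim CMs, and 15 and 4.72 in M72. These sums too were all above the controls (log2 fold change 2.56, SE 1.48, in bright CMs), but 1 cell held 87.7% of the counts in the dim CMs of M25 and 73.2% in the cells of M72 labelled bright. *Cacnb1* (0.760 to 5.57) and *Cacna1a* (0 to 2.10), known mainly from skeletal muscle and from neurons, were low in all sums.

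The share of cells with a count describes the same genes cell by cell. A count of *Kcnj2* was found in 63.6% of control CMs (exact binomial 95% interval 45.1 to 79.6), in 38.8% (28.1 to 50.3) of homozygous bright and in 39.7% (28 to 52.3) of homozygous dim CMs. By mouse the shares were 66.7% (M26) and 55.6% (M73) against 61.9% (M25) and 30.5% (M116) in bright CMs, so that M25 lay between the controls. With every cell thinned to 100000 counts, which left out 20 shallower cells (5 control, 7 homozygous bright, 2 homozygous dim and 6 of M72), the *Kcnj2* share was 46.4% in control, 30.1% in bright and 30.3% in dim CMs. By mouse it was then 8 of 20 cells (M26) and 62.5% (M73) in control against 52.4% (M25) and 21.2% (M116) in bright CMs, so that bright M25 lay above the control of its library set and the lower pooled share rests on M116. *Kcnd2* was found in 63.6% of control, 28.8% of bright and 47.1% of dim CMs, and after thinning in 53.6%, 21.9% and 39.4%. Both bright mice had lower *Kcnd2* shares (33.3% in M25 and 27.1% in M116) than both control mice (70.8% in M26 and 44.4% in M73), and the intervals of M25 and M73 overlapped widely. *Kcne1* was found in most cells of every label, from 78.8% in control to 98.5% in homozygous dim CMs. Its median over the cells with at least 100000 counts was 345 and 247 CPM in bright CMs of M25 and M116 against 171 and 26.8 CPM in M26 and M73. *Kcna4*, whose share of cells is the quantity by which it was chosen, was found in 1 of 33 control, 16 of 80 bright and 22 of 68 dim CMs, which describes that choice. All these intervals cover counting error only.

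**Figure D3:**
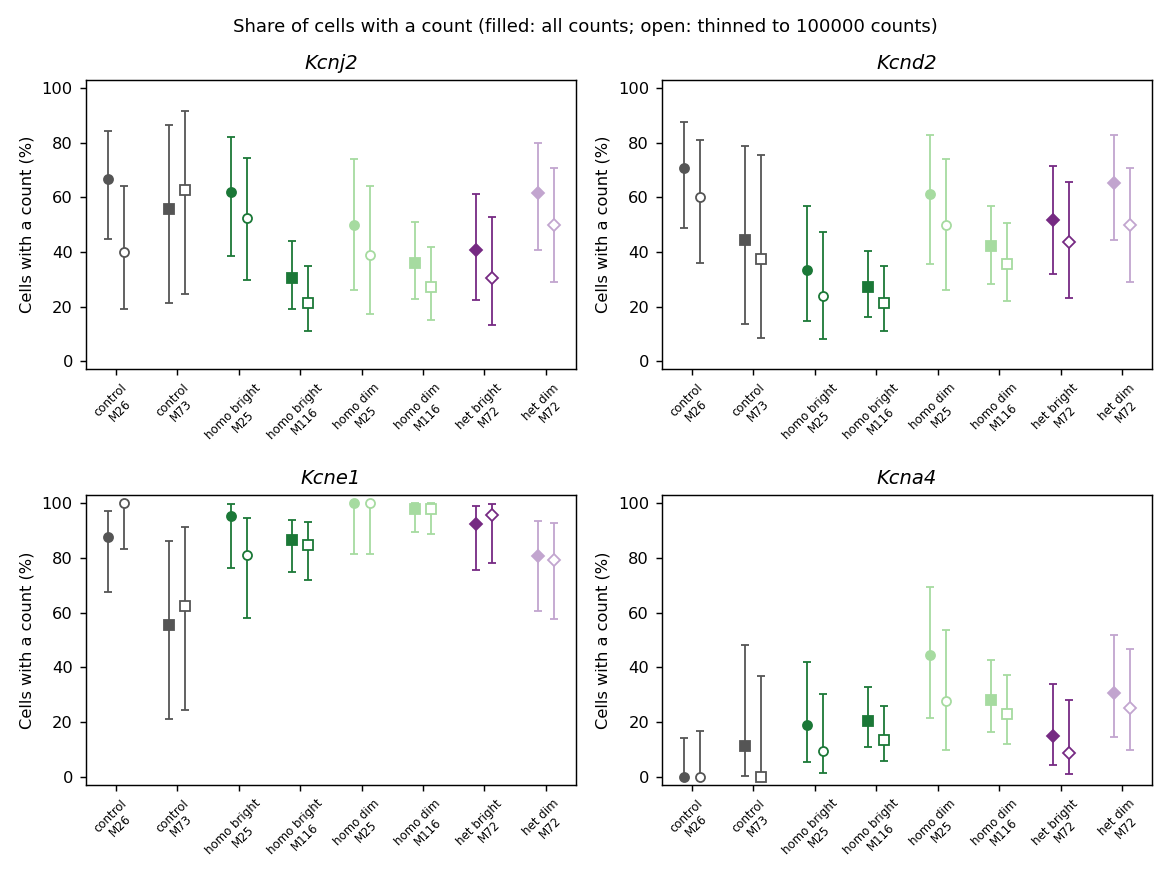
Share of cells with a count of *Kcnj2*, *Kcnd2*, *Kcne1* and *Kcna4* (percent) in each of the 8 sums, with exact binomial 95% intervals; filled symbols use all counts and open symbols cells thinned to 100000 counts. *Kcnd2* shares are 44.4% and 70.8% in the control mice and 27.1% and 33.3% in the homozygous bright sums with all counts, and those of *Kcna4* show the values by which it was chosen.

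**Figure D4:**
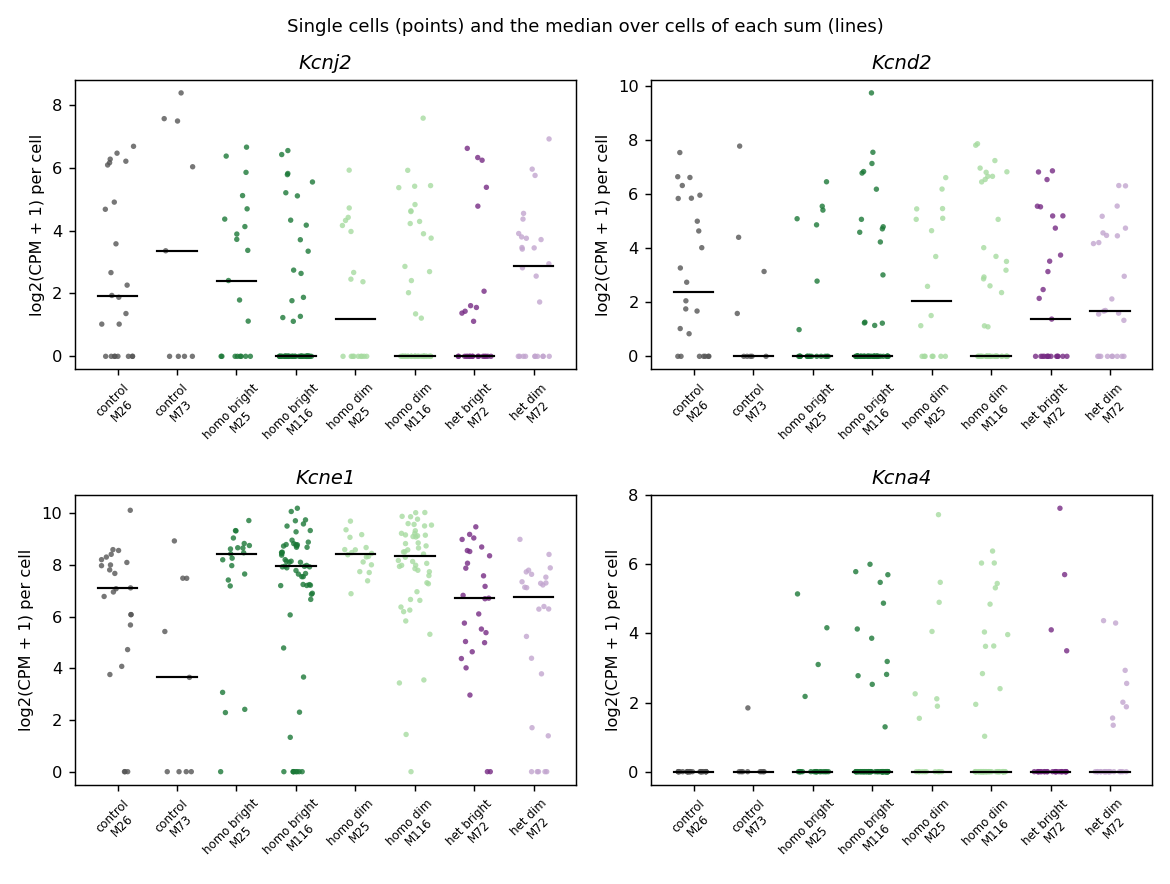
Log2(CPM + 1) of the same genes in single cells (points) of each sum, with the median over cells as a line. For *Kcnd2* the median is at 0 in 4 of the sums (control M73, both homozygous bright sums and dim M116), and single cells reach far above it, while for *Kcne1* most cells have counts.

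A cell with at least 100000 counts held counts of 15.5 (control), 15 (homozygous bright), 14 (homozygous dim), 15 (M72, labelled bright) and 16 (M72, labelled dim) of the 24 genes at the median, with 1 as the lowest and 21 as the highest number. After thinning the medians were 12.5, 12, 12.5, 13 and 14. Of the 24 genes, 20 were found in at least 10% of the cells of each of the 5 labels.

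RefSeq promoters, from 250 bases before to 50 bases after a gene's start (build GRCm38.p6), were matched for 13 of the 24 genes. Those of *Kcnj2*, *Kcnd2*, *Kcnip2* and *Kcna4* are shown because these genes had an unadjusted p under 0.05 against control, favoured by the limit on cells for *Kcna4*, and an entry in the table. Capitals mark matches on either strand to the E-box CANNTG, the GC box GGGCGG, the GATA motif AGATAA and the TATA motif TATAAA.
Kcnj2 promoter, chr11:111065914-111066213, plus strand: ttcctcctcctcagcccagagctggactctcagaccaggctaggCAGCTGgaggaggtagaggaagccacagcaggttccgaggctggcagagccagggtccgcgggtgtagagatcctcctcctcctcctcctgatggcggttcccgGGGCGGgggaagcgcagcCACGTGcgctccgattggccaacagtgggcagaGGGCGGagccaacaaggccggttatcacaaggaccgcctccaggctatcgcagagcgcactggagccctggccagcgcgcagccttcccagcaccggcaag
Kcnd2 promoter, chr6:21215096-21215395, plus strand: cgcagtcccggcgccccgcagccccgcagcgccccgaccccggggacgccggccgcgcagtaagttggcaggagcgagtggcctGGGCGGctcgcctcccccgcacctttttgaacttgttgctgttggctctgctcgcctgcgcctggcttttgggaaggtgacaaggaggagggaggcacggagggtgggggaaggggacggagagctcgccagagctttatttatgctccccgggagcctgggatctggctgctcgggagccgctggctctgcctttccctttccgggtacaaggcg
Kcnip2 promoter, chr19:45816014-45816313, minus strand: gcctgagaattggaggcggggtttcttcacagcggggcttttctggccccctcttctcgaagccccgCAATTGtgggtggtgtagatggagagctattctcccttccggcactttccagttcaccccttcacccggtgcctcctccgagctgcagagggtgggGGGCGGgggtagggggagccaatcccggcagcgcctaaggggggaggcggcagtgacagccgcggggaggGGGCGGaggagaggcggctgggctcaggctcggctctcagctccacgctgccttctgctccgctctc
Kcna4 promoter, chr2:107290339-107290638, plus strand: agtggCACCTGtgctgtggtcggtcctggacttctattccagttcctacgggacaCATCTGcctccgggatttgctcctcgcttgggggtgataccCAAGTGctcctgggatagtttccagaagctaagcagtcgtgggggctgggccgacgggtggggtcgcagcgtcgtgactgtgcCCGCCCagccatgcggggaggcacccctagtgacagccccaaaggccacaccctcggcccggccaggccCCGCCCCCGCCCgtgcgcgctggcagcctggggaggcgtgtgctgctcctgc
The GC box was found in all 4, with 1 match in *Kcnd2*, 2 each in *Kcnj2* and *Kcnip2* and 3 in *Kcna4*, where 2 of the matches follow each other around the start, and 35.7% of all 32851 promoters of this length hold it. An E-box was found in *Kcnj2* (2), *Kcnip2* (1) and *Kcna4* (3) and not in *Kcnd2*, against 72.3% of all promoters. Neither AGATAA (11.2% of all promoters) nor TATAAA (13.6%) lay in these windows. The 4 promoters have a GC content of 66.7% to 68.7%, and the median of all promoters is 52.7%. A match describes the letters of the window and not binding of a factor.

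The second question was whether bright and dim CMs of the same mice differ. In the 2 homozygous mice 9 channel genes were higher and 15 lower in bright than in dim CMs, the median log2 fold change being -0.13 (all genes -0.01) and the median standard error 0.33. *Kcnd2* (-0.86, SE 0.42), *Kcnj3* (-0.69, SE 0.48), *Kcnh2* (-0.53, SE 0.29) and the rarer *Kcna4* (-1.28, SE 0.62) had lower values in bright CMs. *Kcnq1* (0.44, SE 0.31) and *Kcnj12* (0.49, SE 0.56) had higher ones. In edgeR 0 of the 24 genes had an adjusted p below 0.05 (0.0% of 13439 genes) and 0 an unadjusted p under 0.05 (background 4.12%), and both numbers were 0 in DESeq2 as well, which called 89 of all genes (5.86% at an unadjusted p under 0.05).

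Bright and dim CMs were also compared within 3 transgenic mice, with M72 added and the mouse as a block. At an unadjusted p under 0.05 there were 2 of 24 genes (8.33%, background 2.84%), among them *Kcnq1*, higher in cells labelled bright (log2 fold change 0.65, SE 0.26), and 0 had an adjusted p below 0.05 in edgeR (0.0% of 12499 genes). DESeq2 also called 0 of the 24, against 39 of all genes, and had 3 at an unadjusted p under 0.05 (background 7.19%). Higher were 13 and lower 11 of the genes, and with each cell weighted equally 3 and 16 of 19 tested (median of all genes -0.25). In all 3 mice 5 genes were higher in cells labelled bright (20.8%, background 12.1%), among them *Kcnq1*, *Kcnj5* and *Cacna1g*. For *Kcnq1* the log2 differences were 0.46 (M25), 0.40 (M116) and 1.08 (M72), and for *Kcnj5* 0.40, 0.28 and 0.66. Another 3 genes were lower in all 3 mice (12.5%, background 12%), namely *Cacna1c* (-0.49, -0.21 and -0.29), *Kcnh2* (-0.39, -0.63 and -0.53) and *Cacna1a* (-1.02, -1.30 and -1.52). *Cacna1a* was found in 17.65% of homozygous dim and 11.54% of M72 dim cells, against 10% and 0% of those labelled bright. The limit on cells thus favours its direction here too. In M72 the directions of all these genes follow the labels and not its transgene counts, which were higher in the cells labelled dim. Ordering M72 by its transgene counts instead, a reading chosen after seeing the data, turns the sign of every M72 difference. By construction none of these 8 genes then has the same sign in all 3 mice. It was then 1 gene that was higher in 3 of 3 (*Kcnj12*, 4.17%, background 13.6%) and 6 that were lower (*Kcne1*, *Kcnip2*, *Cacnb2*, *Kcnd2*, *Kcnj3* and *Kcna4*, 25%, background 13%). Without any 1 of the 3 mice, 0 channel genes had an unadjusted p under 0.05 (background 1.75% to 3.55%). With each cell weighted equally *Kcnq1* turned to -0.08 and *Kcnj5* to -0.02.

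**Figure D5:**
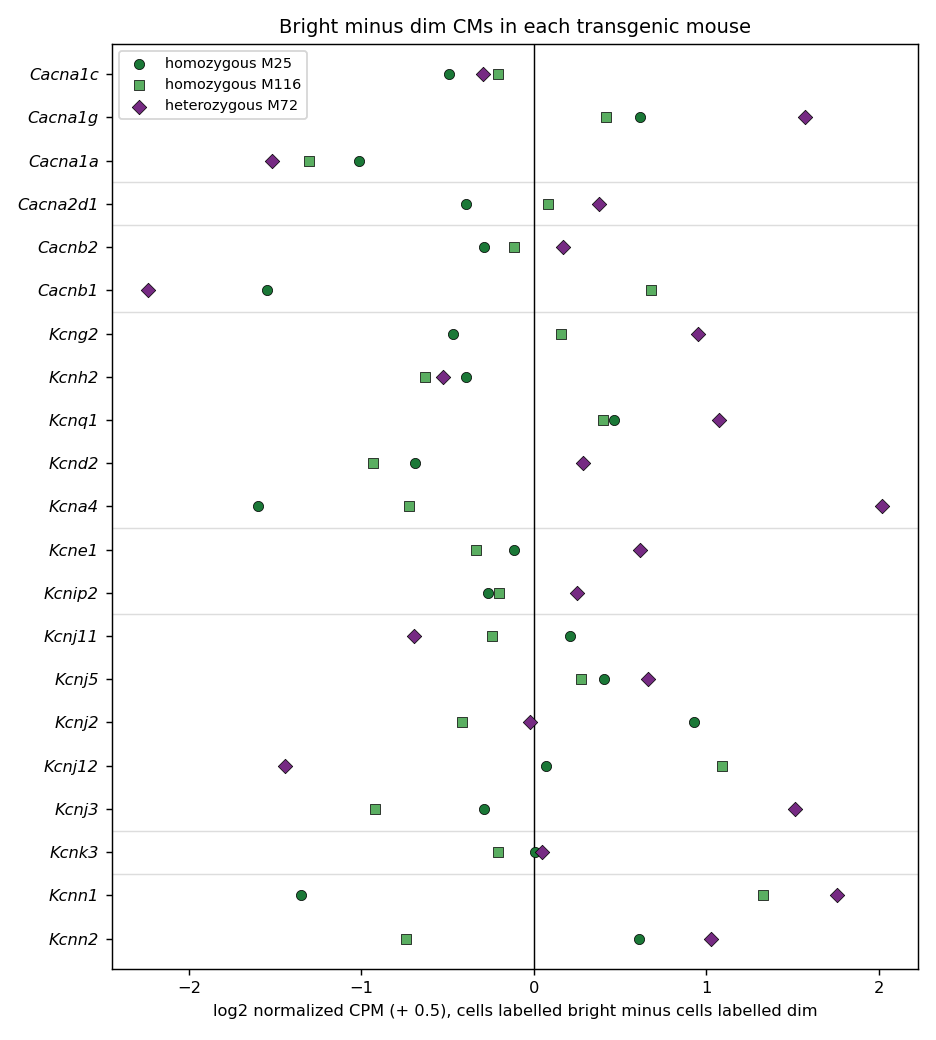
Difference between cells labelled bright and dim in log2 normalized CPM (with 0.5 added) for channel genes in homozygous mice M25 and M116 and heterozygous mouse M72. *Kcnq1* and *Kcnj5* lie to the right of 0 and *Kcnh2* and *Cacna1c* to the left in all 3 mice, and in 7 genes, such as *Kcnj3* and *Kcna4*, M72 lies on the other side from both homozygous mice.

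The heterozygous mouse is a single animal, so that its values have no test. Its cells labelled bright were above both control mice in 11 channel genes (45.8%), between them in 6 and below both in 7 (29.2%), where the background over the 16615 genes that pass the count filter over all 8 sums was 34.2% above and 18.6% below. For its cells labelled dim these numbers were 10 (41.7%), 8 and 6 (25%), with a background of 34.8% above and 18% below. Among the genes above were *Kcna4* in both sums and *Cacna1a* in the cells labelled dim, which met the limit on cells through transgenic CMs. Below both controls in both of its sums were *Kcnj2*, *Kcnd2*, *Kcnk3*, *Kcnip2* and *Kcnj11*, which were also below both controls in the homozygous sums. M72 and the homozygous mice were set against the same control sums, so the shared direction is not independent. The share of all genes with this joint pattern was not counted. *Cacna1c* was higher in M72 than in any other mouse, by 0.49 and 0.78 on the log2 scale over M73, the control of its library set.

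Genes outside the rule that regulate these currents were read from a list of 32, including *Hcn* channels, sulfonylurea receptors, calmodulins and scaffold proteins. In bright against control CMs 24 of them were tested, 11 higher and 13 lower, with a median log2 fold change of -0.03 (all genes 0.11), and 0 passed an adjusted p of 0.05 in edgeR. The list held 1 of 24 genes at an unadjusted p under 0.05 (background 6.55%), *Lrrc10*, a heart-specific gene that modulates the L-type channel, with 274 and 386 normalized CPM in control and 210 and 122 in bright CMs (log2 fold change -1.02, SE 0.40). In dim CMs 0 of 25 passed, and 3 had an unadjusted p under 0.05 (background 6.22%), namely *Lrrc10* (-1.24, SE 0.35), the scaffold gene *Dlg1* (-2.06, SE 0.80) and *Rem1*. *Rem1* had 0 counts in both control mice, at most 0.101 normalized CPM in bright and 0.946 and 3.27 in dim CMs, so that it passed the filter on low counts through the dim CMs and its p values are no result. Between bright and dim CMs 0 of 27 partner genes passed in the homozygous mice, with *Rem1* alone at an unadjusted p under 0.05 (background 4.12%), and 0 of 24 in 3 mice. *Abcc9*, the regulatory subunit that joins *Kcnj11* in ventricular channels, had a log2 fold change of 0.02 (SE 0.33) in bright CMs.

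Patterns in log2 normalized CPM were compared among the channel genes alone, as a description over the 8 sums, which share mice and library sets. The pattern of *Kcnj2* was most like that of *Kcnk3* (Pearson r = 0.90), *Kcnj11* (0.87) and *Kcnip2* (0.86). For *Cacna1c* *Cacnb2* came first (0.76).

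A Wilcoxon rank sum test that takes cells as replicates, on log-normalized values with Bonferroni correction, compared 630 genes between bright and control CMs that met limits on detection and fold change. Of these, 45 passed, and 3 were channel genes, of which 0 passed. They were *Kcnk3* (natural log fold change -0.35), *Kcne1* (0.40) and *Kcnip2* (-0.27), with the same directions as in the sums. This test describes the cells of these 4 mice and not mice.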

How the data were processed

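Members and gene lists were chosen with earlier results of these data known. Reads were aligned by the authors with STAR, using the mouse genome to which human BAG3 and eGFP transcripts were added, and counted by its GeneCounts option. The deposited table holds these raw counts as whole numbers for 55538 features, with 487 to 1392253 counts per cell. Genome build and annotation are not given in the sources used here. Promoter positions are those of RefSeq (GRCm38.p6), and exon lengths come from GENCODE M21. Counts were summed per mouse and label, giving 8 sums, and compared with edgeR 4.0.16 (filterByExpr, TMM, glmQLFit, glmQLFTest, Benjamini-Hochberg, threshold 0.05) under R 4.3.3, on the whole table.

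Homozygous bright and dim sums were each compared with control sums and with each other without a block, and in 3 transgenic mice with the mouse as a block. Alternatives were library size scaling, no filter, DESeq2 1.42.0, cells with at least 1000 genes, all sums in 1 fit, equal weight per cell (limma 3.58.1 on the mean of log2(CPM + 1)), library set or mouse blocks, bright and dim cells summed, each mouse left out, and, chosen after seeing the data, cells without 1000 CPM of fibroblast, endothelial and immune markers and M72 ordered by its transgene counts. M25 and M116 each gave both bright and dim CMs, so these sums are paired by animal. Over 13439 genes, which are not replicates, their deviations correlated with Pearson r = 0.0824.

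The genes given with every value were those known from the heart that met the rule and those with an unadjusted p under 0.05 in any comparison, 19 in all. Of the 24 genes, 3 are in the counts and are not reported here by name. Cells were checked for identical counts and shared index pairs, and 0 were found. The fits were tested on simulated counts.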

Additional observations from a re-analysis of the deposited data

Results flagged for a closer look

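In 7 channel genes the difference between cells labelled bright and dim had the opposite sign in the heterozygous mouse M72 from that in both homozygous mice, M25 and M116. This is 29.2% of the 24 genes, where the background over all genes tested was 26.6%. The difference between genotypes was not tested, as there is 1 heterozygous mouse, and the transgene counts of M72 go against its bright and dim labels. Ordering M72 by its transgene counts turns the sign of every M72 difference. By construction these 7 genes then have the same sign in all 3 mice, and 8 others (33.3%, background 24.1%) the opposite sign in M72. The log2 difference in M72 was 0.61 for *Kcne1* (-0.11 and -0.33 in M25 and M116), 0.25 for *Kcnip2* (-0.26 and -0.20), 0.17 for *Cacnb2* (-0.29 and -0.11), 0.28 for *Kcnd2* (-0.69 and -0.93), 1.52 for *Kcnj3* (-0.29 and -0.92), -1.44 for *Kcnj12* (0.07 and 1.09) and 2.02 for *Kcna4* (-1.60 and -0.73).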

How the results depend on the processing

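The number of channel genes past an adjusted p of 0.05 in edgeR was 0 in all 4 comparisons. It became 1 (*Kcnj2*) in bright against control CMs without the filter on low counts (of 163 genes called), and 1 (*Kcnj2*) in dim against control CMs without the filter, with DESeq2 and without control M26. With each mouse left out in turn it ranged from 0 to 1 in dim against control CMs and stayed at 0 in the other comparisons. With the replicate block for the mouse, as bright and dim CMs of M25 and M116 are paired, 0 channel genes and 0 of all genes passed, and the block changed no call. Without the block in 3 mice the numbers were also 0. Over all genes the number called moved from 2 to between 0 and 163 in bright against control CMs, from 0 to up to 827 in dim against control CMs (without M26), to up to 217 in bright against dim CMs and to up to 39 in 3 mice. Of 96 log2 fold changes, 52 were larger than their standard error, and those of them that turned their sign were, with each cell weighted equally, those of *Kcnip2* (0.20), *Cacna2d1* (0.61) and *Kcnk3* (0.10) in dim against control CMs and of *Kcnq1* (-0.0752) and *Kcnj5* (-0.019) in 3 mice, and, without control M73, that of *Kcnh2* in dim against control CMs (0.0445, and -0.9718 without control M26). The other 44, within their standard error, turned in 83 of 513 values. The cause was not tested. With each cell weighted equally 3 channel genes were higher and 16 lower in cells labelled bright of 3 mice, against 13 and 11 in the sums. In dim against control CMs 14 were higher and 4 lower, against 14 and 10. These fits tested 19 and 18 of the 24 genes, and the median of all genes was -0.25 in 3 mice and 0.66 in dim against control CMs. The turned values of *Kcnq1* and *Kcnj5* lay above the first median, and those of *Kcnip2*, *Cacna2d1* and *Kcnk3* below the second. Leaving out 1 control mouse moved the log2 fold changes in bright CMs of *Kcnj5* (1.05) to between 0.33 and 2.68, of *Cacnb2* (0.61) to between 0.16 and 1.28, of *Kcnh2* (-1.10) to between -1.52 and -0.47 and of *Cacna2d1* (-0.91) to between -1.28 and -0.38. Over all alternatives those of *Cacna1g* (2.56) ranged from 1.80 to 4.99, of *Kcnq1* (1.39) from 0.93 to 2.12 and of *Kcng2* (0.62) from 0.14 to 1.37. The median log2 fold change in bright against control CMs was 0.14 without the cells with markers of other cell types and 0.11 without control M73, against 0.49. A lone mouse left in a group takes its spread from the other group. A limit of 20% of cells gave 20 channel genes, and 10% of the cells with at least 1000 genes gave 25. A gene at 0 counts in a sum may hold up to 3.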
